A study of Mus musculus with 7 samples.

Results

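The nuclear genes that encode subunits of the mitochondrial respiratory chain and ATP synthase were examined in mouse hematopoietic stem cells with and without the aryl hydrocarbon receptor gene, Ahr. Members were the genes whose array annotation gave a single symbol beginning with Ndufa, Ndufb, Ndufc, Ndufs, Ndufv, Uqcr, Cox4, Cox5, Cox6, Cox7, Cox8 or Atp5, or equal to Sdha, Sdhb, Sdhc, Sdhd or Cycs. The Ndufaf assembly factors were left out. That rule found 82 genes of 22180 on the array, carried by 95 probe sets, with the probe set of highest mean level standing for the gene. By complex there were 32 genes of complex I, 4 of complex II, 7 of complex III, cytochrome c, 19 of complex IV and 17 of complex V, and 2 pseudogenes that share the symbols. Ndufa4, once counted with complex I and now known as a complex IV subunit, was placed in complex IV together with its paralog Ndufa4l2 and the supercomplex factor gene Cox7a2l.

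Per the labels, stem cells came from Ahr knockout mice (Ahr-KO, 3 arrays) and mice with wild-type Ahr (WT, 4 arrays), all on a C57BL/6J background and killed at 8 weeks of age. The labels do not say how Ahr was disrupted, whether the deletion was confined to some cells, or whether an array holds 1 mouse or a pool, so the tests measure only the spread between arrays, which may be technical. Marrow was depleted of lineage-positive cells and stem cells were isolated by SLAM-family surface markers. Biotinylated cDNA, made with a Nugen kit for small amounts of RNA, was read on single-channel Affymetrix arrays, which report an intensity per probe set.

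Complexes I and II pass electrons from NADH and succinate to ubiquinone, complex III hands them to cytochrome c, and complex IV delivers them to oxygen. Complexes I, III and IV pump protons, and ATP synthase, complex V, uses the proton gradient to make ATP. Complex II is encoded wholly in the nucleus, while the others combine nuclear subunits with a few made from mitochondrial DNA. Hematopoietic stem cells are known for leaning on glycolysis while quiescent and for raising oxidative phosphorylation when they differentiate.

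The whole arrays set limits on what follows. Median intensity was 16.9 to 20.3 on the Ahr-KO arrays and 16.95 to 22.1 on the WT arrays. As a mark of background, the level that 95% of 1108 probe sets for olfactory receptors did not exceed was used, at 33.8 to 37.6 on Ahr-KO and 33.9 to 42.8 on WT arrays. The share of annotated probe sets above it was 34.9 to 41.9% in Ahr-KO and 30.7 to 44.9% in WT, with the smallest share on WT replicate 2. Ahr itself read 34.1, 137 and 26.4 on the Ahr-KO arrays, whereas the WT arrays read 31.3, 57.9, 14.9 and 20.5, so it was not lower under the knockout label. The deleted stretch of Ahr is not in the labels, and a probe set outside it would check nothing, so Ahr-KO and WT mean the arrays labelled so, and every direction given rests on those labels. Of 10 stem cell markers, 8 had a probe set of their own and 4 of these, Kit among them, read above background on all 7 arrays. Their summed intensity was 1846 to 2767 in Ahr-KO and 2676 to 6820 in WT, where the highest sum was that of WT replicate 3, with Gata2 alone at 3932, and the other WT arrays reached at most 3623. Mean log2 values of 6 of the 8 were lower in Ahr-KO, with differences from -0.40 for Kit to -2.11 for Gata2. Those of Slamf1 and Mecom were higher, by 2.58 and 1.30. The Mecom difference had a standard error of 2.09 and was -0.73 without WT replicate 2, where Mecom was listed at 0. Slamf1, the gene of the sorting marker CD150, read 57.4, 78.0 and 236 on Ahr-KO arrays, above background on all 3, against 4.56, 23.3, 7.81 and 73.3 on WT arrays, above it on WT replicate 4 alone.

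The respiratory chain was strongly represented in these cells. On all 7 arrays 63 of the 82 genes exceeded the background mark, against 3039 of all 22180 genes, and 7 exceeded it on none. The genotypes were close: 51 genes had higher and 31 lower mean values in Ahr-KO, and the median difference was 0.10 log2 units, with an interquartile range of -0.18 to 0.44. Differences here are Ahr-KO minus WT on the log2(intensity + 1) scale. By limma no member had an adjusted p below 0.05, with 0.963 as the lowest, and the share of all genes below that threshold was 0%. An unadjusted p under 0.05 was found for 1 member, Uqcrc1, or 1.22% of the set, where 4.02% of all genes had one (1.98% higher and 2.04% lower in Ahr-KO) and 1.92% of the 1299 genes with a mean log2 level of at least 8. The share of members with higher values in Ahr-KO was 62.2%, above the 48.4% of all genes, but it was 61.4% among those bright genes. Of the members 57 lay in the bright range, and 64.9% of these were higher. Uqcrc1, with a mean log2 level of 7.50, was not among them, and 0% of them had an unadjusted p under 0.05. The median member's standard error (SE) was 0.53 log2 units.

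**Figure D1:**
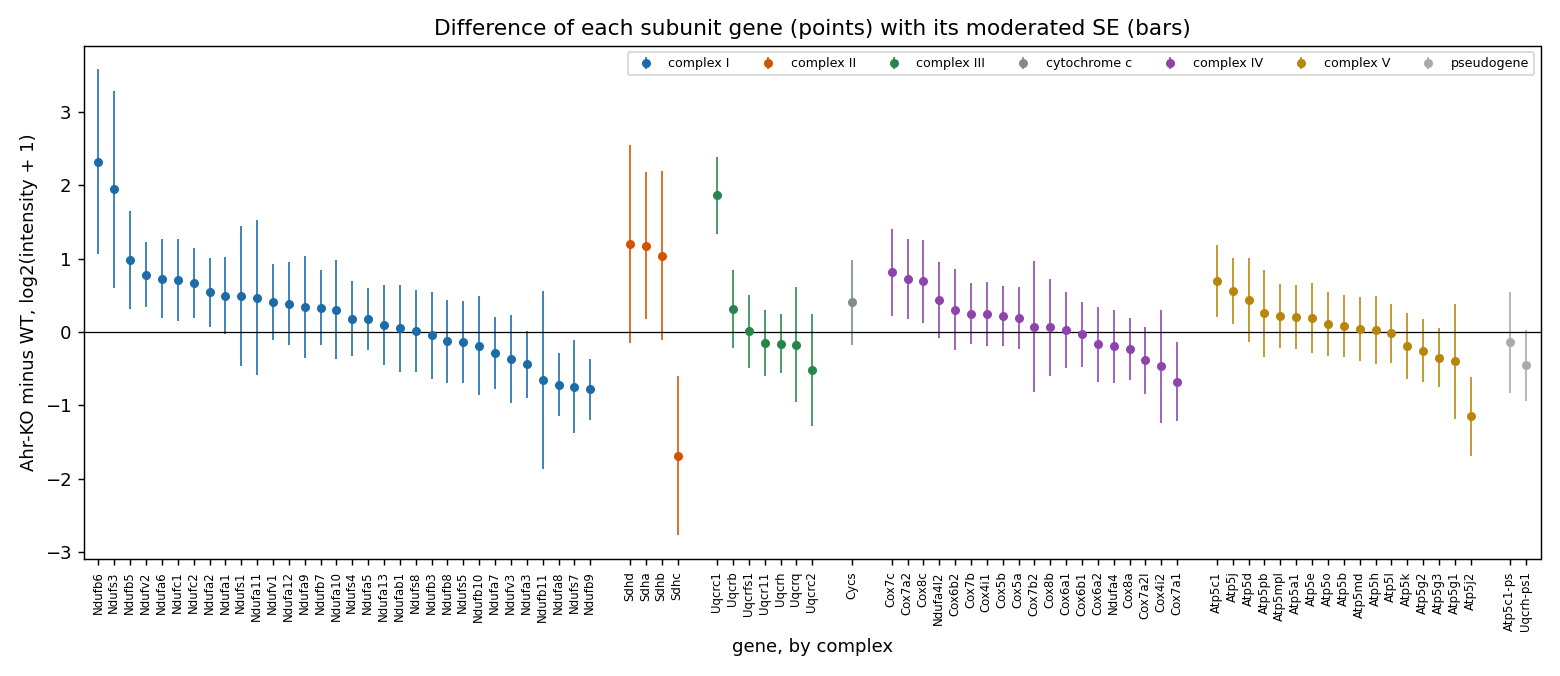
Difference in log2(intensity + 1), Ahr-KO minus WT, for each of the 82 genes (points) with its moderated standard error (bars), grouped by complex along the horizontal axis. Most points lie within 0.5 of 0, Uqcrc1 stands out from complex III at 1.87, and the 4 complex II genes have the widest bars as a group.

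Values of the 3 Ahr-KO and 4 WT arrays did not overlap for 7 members, or 8.54% of them, where 5.78% of all genes showed no overlap. Among those with a mean log2 level of at least 8, the share was 8.77% of the members and 6.54% of all genes. Of the 7 members, the higher ones in Ahr-KO were Uqcrc1, Ndufv2 and Ndufc2 (3 members, where 2.62% of all genes were higher without overlap). The lower ones were Ndufb9, Ndufa8, Atp5g3 and Atp5j2 (4 members, where 3.15% of all genes were lower without overlap). They belong to 3 complexes, and both directions occurred within complex I.

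**Figure D2:**
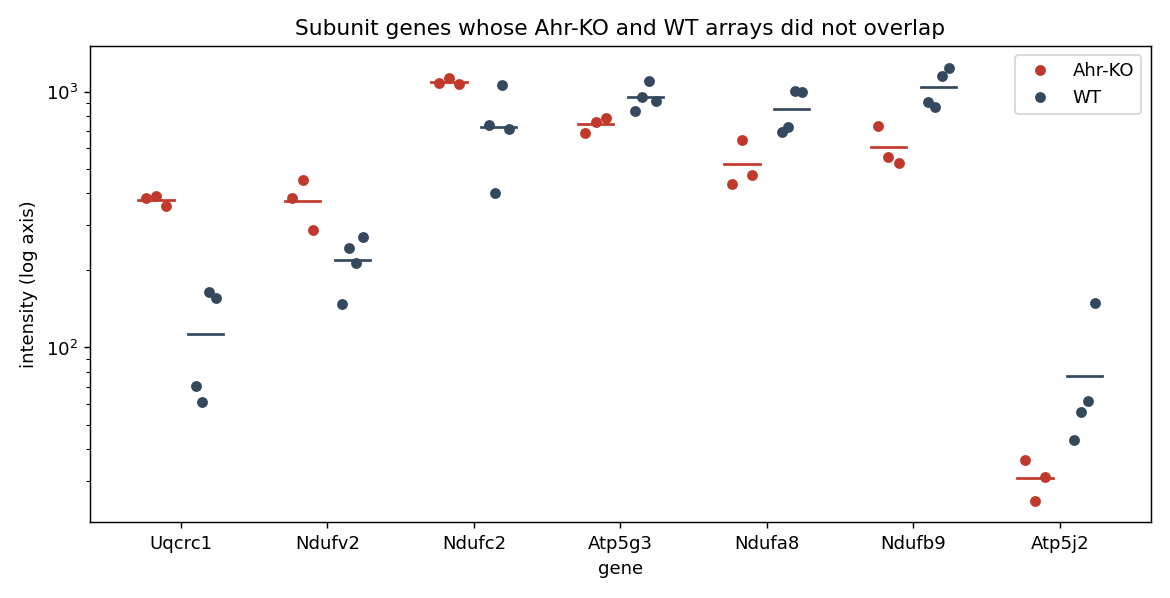
Intensity on each array (points, log axis) and group mean (line) of the 7 genes whose Ahr-KO (red) and WT (dark) values did not overlap. The widest gap is that of Uqcrc1, with Ahr-KO arrays at 358 to 389 and WT arrays at 61.1 to 165.

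Complex I had 21 of 32 genes with higher Ahr-KO values and a median difference of 0.24. Ndufv2, an iron-sulfur subunit of the module that oxidises NADH, stood at 385, 451 and 289 on the Ahr-KO arrays, whereas the WT arrays read 148, 244, 213 and 271. Its difference was 0.78 ± 0.45 (SE; limma adjusted p = 0.963), a fold of 1.72. The highest WT array lay just under the lowest Ahr-KO array. Ndufc2, a small membrane-arm subunit, stood at 1077, 1125 and 1072 for Ahr-KO, compared with 740, 400, 1060 and 714 for WT, a difference of 0.67 ± 0.48 (SE). WT replicate 3 came just below the Ahr-KO arrays, so the separation was narrow.

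Other accessory subunits of complex I went the other way. Ndufb9, of the membrane arm, stood at 736, 556 and 528 on Ahr-KO arrays, against 914, 873, 1151 and 1241 on WT arrays. The difference was -0.78 ± 0.42 (SE; limma adjusted p = 0.963). All Ahr-KO arrays lay below all WT arrays, and no single array held up the gap, which ran from -0.93 to -0.69 when each was left out. Ndufa8, another accessory subunit, stood at 437, 647 and 474 in Ahr-KO cells, against 695, 725, 1006 and 992 in WT cells, a difference of -0.72 ± 0.43 (SE). Its second probe set, almost as bright, did not share the separation: it read 519, 928 and 559 for Ahr-KO, compared with 761, 395, 745 and 1102 for WT, with a difference of -0.13 ± 0.52 (SE).

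The widest spread in the set belonged to Ndufb6, a membrane-arm subunit. It read 567, 502 and 17769 on the Ahr-KO arrays, whereas the WT arrays read 571, 437, 140 and 395. A single array, Ahr-KO replicate 3, was far above the other six, and the difference of 2.32 ± 1.26 (SE) became 0.64 without it. Ndufs3, a core subunit of the arm that passes electrons to ubiquinone, read 649, 677 and 503 on Ahr-KO arrays, against 1055, 18.4, 54.8 and 537 on WT arrays. Here the Ahr-KO arrays were close together while WT replicates 2 and 3 were low. The Ndufs3 difference of 1.94 ± 1.34 (SE) was 0.94 without WT replicate 2. The brightest complex I genes were steadier. Ndufa5 read 1267, 1292 and 1455 in Ahr-KO cells, against 1013, 1181, 993 and 1643 in WT cells, a difference of 0.18 ± 0.42 (SE). Ndufa3 read 911, 1765 and 957 for Ahr-KO, compared with 1952, 1583, 1312 and 1488 for WT, and its difference of -0.44 ± 0.45 (SE) was -0.75 without Ahr-KO replicate 2.

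The 6 measured core subunits, those conserved from bacteria, had a median difference of 0.45, with 5 of 6 higher in Ahr-KO. Those 5 were uneven: Ndufs8 differed by 0.01 ± 0.56 (SE), Ndufv1 by 0.41 ± 0.52 (SE) and Ndufs1 by 0.49 ± 0.96 (SE). The Ndufs1 difference was -0.08 without WT replicate 1. The 26 accessory subunits had a median of 0.18, with 16 higher. Ndufs7, which holds the last iron-sulfur cluster before ubiquinone, was the core subunit with a lower value, at -0.74 ± 0.64 (SE), or -0.25 without WT replicate 1. Its WT replicate 1 read 3742, against 867 to 980 on the other WT arrays and 560 to 1072 in Ahr-KO.

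Complex II, succinate dehydrogenase, was the least even. Each of its 4 genes differed more than 10-fold between its highest and lowest array, as did 11 of the 82 members. So wide a range was common elsewhere, found for 9663 of all 22180 genes and 1130 of the 2654 at mean levels like those of complex II. The median residual SD of its genes was 1.72 log2 units, against 1.03 for the 2654 genes in the same range of mean levels. Sdha, the flavin subunit that oxidises succinate, read 354, 247 and 306 on Ahr-KO arrays, against 293, 16.6, 267 and 222 on WT arrays. Apart from WT replicate 2 the 2 genotypes lay in the same range, and the difference of 1.18 ± 1.003 (SE) was 0.21 without that array. Sdhb, the iron-sulfur subunit, read 377, 1057 and 738 in Ahr-KO cells, against 1014, 32.6, 566 and 569 in WT cells. The same WT array was the low one, and the difference of 1.04 ± 1.15 (SE) became -0.05 without it.

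The membrane anchors of complex II differed from each other on that array. Sdhc read 14.95, 63.2 and 128 for Ahr-KO, compared with 36.4, 514, 101 and 369 for WT, a difference of -1.69 ± 1.09 (SE), or -0.85 without Ahr-KO replicate 1 and -1.14 without WT replicate 2. WT replicate 2, lowest for Sdha, Sdhb and Sdhd, was the highest of all arrays for Sdhc. Sdhd read 454, 256 and 84.3 on Ahr-KO arrays, against 25.8, 15.5, 627 and 274 on WT arrays, a difference of 1.21 ± 1.35 (SE) that was 0.37 without WT replicate 2, 0.60 without WT replicate 1, and 0.67 if Ahr-KO replicate 1 was omitted. WT replicates 1 and 2 of Sdhd lay below all 3 Ahr-KO arrays, and WT replicate 3 above them.

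**Figure D3:**
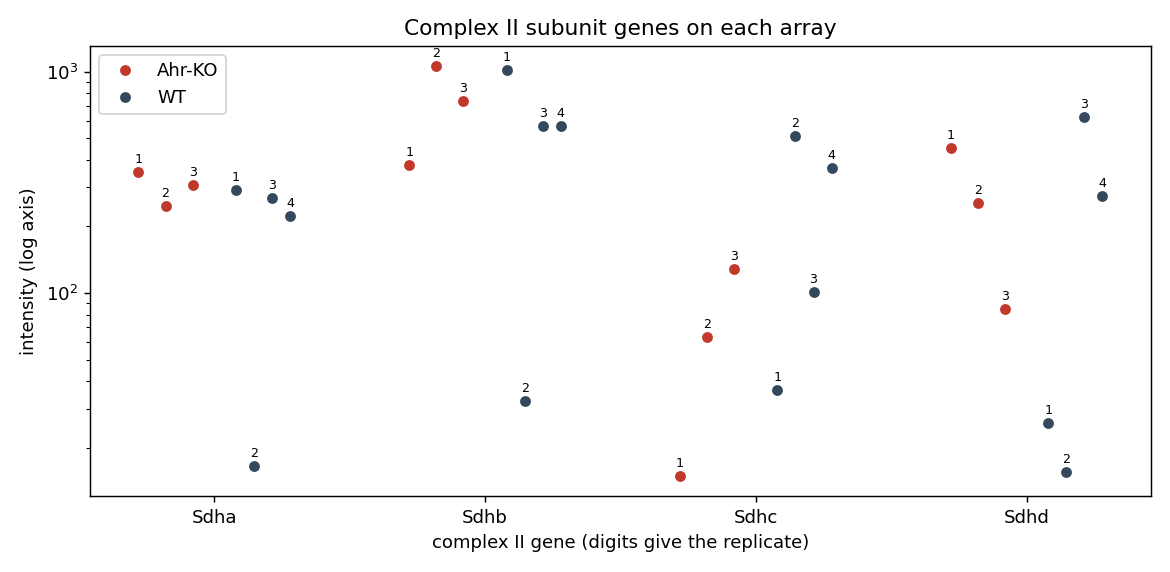
Intensity (log axis) of the 4 complex II genes on each Ahr-KO (red) and WT (dark) array, with the replicate number above each point. WT replicate 2 is the lowest array for Sdha at 16.6, Sdhb at 32.6 and Sdhd at 15.5, and the highest for Sdhc at 514.

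Complex III held the member with the smallest unadjusted p. Uqcrc1, core protein 1 of the complex, stood at 384, 389 and 358 on the Ahr-KO arrays, whereas the WT arrays read 70.5, 61.1, 165 and 156. Every Ahr-KO array was well above the highest WT array, and the Ahr-KO arrays lay close together. On the log2 scale Ahr-KO averaged 8.56 ± 0.06 (SD, n = 3), against 6.70 ± 0.74 (SD, n = 4) for WT, which is a difference of 1.87 ± 0.52 (SE; limma adjusted p = 0.963 over all probe sets, unadjusted p = 0.00762), a fold of 3.65. An exact permutation test of the 35 splits of the arrays gave a two-sided p of 0.0286, the smallest this design allows. Uqcrc1 had already been singled out in an earlier look at these data, so its p-values describe a chosen gene. The difference ran from 1.62 without WT replicate 2 to 2.09 without WT replicate 3.

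Granulocyte and monocyte markers varied between the arrays too. The summed intensity of 14 of them was 5820, 15779 and 8175 in Ahr-KO cells, against 833, 17617, 6978 and 4961 in WT cells. Of the 14, 13 had higher mean log2 values in Ahr-KO and 1 lower, with a median difference of 1.02, where 48.4% of all genes were higher. Without WT replicate 1, the array of lowest sum, both directions occurred, from -1.03 for Camp to 1.56 for Fcgr3. On all 7 arrays 5 of the 14 exceeded background. Fcgr3, an Fc receptor gene, was higher without overlap, as Uqcrc1 was, at 136, 55.4 and 140 on Ahr-KO arrays, against 17.3, 54.2, 30.1 and 23.5 on WT arrays, a difference of 1.80 ± 0.58 (SE; limma adjusted p = 0.963). Ly6g and Cd14 exceeded background on no array. Both extremes of that sum, WT replicates 1 and 2, had the low Uqcrc1 values of 70.5 and 61.1. Markers of other blood cells were mixed. Higher in Ahr-KO were 4 of 6 T and NK cell markers, 0 of 5 B cell markers and 3 of 5 erythroid markers. Their median differences were 0.32, -0.19 and 0.08, and 2, 0 and 1 of them exceeded background on all 7 arrays. The part of other cells in the Uqcrc1 difference was not tested. In bulk samples fewer cells of a type and less RNA per cell cannot be told apart.

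The other subunits of complex III did not share the shift of Uqcrc1. Only 3 of the 7 genes had higher values in Ahr-KO, and the median difference was -0.15. Uqcrc2, core protein 2 and the structural partner of Uqcrc1, read 172, 608 and 553 for Ahr-KO, compared with 1672, 537, 291 and 363 for WT. The ranges overlapped widely, and its difference of -0.52 ± 0.76 (SE) was 0.06 without Ahr-KO replicate 1 and 0.01 without WT replicate 1. Uqcrb, the subunit near the ubiquinone site, read 958, 796 and 723 on Ahr-KO arrays, against 1165, 363, 520 and 870 on WT arrays, a difference of 0.31 ± 0.53 (SE), or 0.02 without WT replicate 2. A dim probe set outside the set, shared by Uqcrb and Gm10767, was higher in Ahr-KO without overlap. Its difference was 2.05 ± 0.65 (SE; limma adjusted p = 0.963), but it exceeded background on no array. The bright hinge protein gene Uqcrh was among the steadiest of the set, at 2381, 2256 and 1781 in Ahr-KO cells, against 2308, 2106, 2533 and 2559 in WT cells. Uqcr11 read 1591, 1016 and 1461 for Ahr-KO, compared with 1857, 1329, 1057 and 1822 for WT. Uqcrfs1, the Rieske iron-sulfur protein, differed by 0.01 ± 0.49 (SE) and Uqcrq by -0.17 ± 0.78 (SE).

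Promoters of respiratory chain genes are known for sites of NRF1, of ETS family factors such as GABP, and of YY1, and AhR binds response elements with a GCGTG core. RefSeq promoter sequences (GRCm38.p6, 250 bases before to 50 after each start site) matched 66 of the 82 members. The NRF1 letters GCGCANGCG, searched on both strands, stood in 19 of these 66 (28.8%) and in 7.03% of 27025 genes. With T as the open base, GCGCATGCG, a subset of those matches, they stood in 9 members (13.6%) and in 1.95% of genes. The windows of these 9 are printed because Uqcrc1, with the widest difference among the members without overlap, carries the same letters as members on either side of 0. They run 5′ to 3′ along the gene, with the first match on either strand in capitals.
Uqcrc1: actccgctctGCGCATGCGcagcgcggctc
Uqcr11: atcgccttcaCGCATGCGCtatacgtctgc
Cycs: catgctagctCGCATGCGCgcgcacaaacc
Ndufa11: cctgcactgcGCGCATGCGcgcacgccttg
Ndufa8: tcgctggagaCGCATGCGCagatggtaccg
Cox6a1: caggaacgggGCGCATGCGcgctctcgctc
Atp5g2: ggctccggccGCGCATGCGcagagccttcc
Atp5k: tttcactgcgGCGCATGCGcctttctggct
Atp5l: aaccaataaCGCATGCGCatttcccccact

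The Uqcrc1 window is chr9:108936668-108936697 on the plus strand, and its match begins at base 31 of the annotated transcript. The match begins 5 bases before the start site in Uqcr11 (chr10:80406807-80406836, minus), 61 in Cycs (chr6:50566611-50566640, minus), 60 in Ndufa11 (chr17:56717692-56717721, plus) and 9 in Ndufa8 (chr2:36049328-36049357, minus). It begins 162 bases before it in Cox6a1 (chr5:115349101-115349130, minus), 42 in Atp5g2 (chr15:102671070-102671099, minus), 50 in Atp5k (chr5:108434430-108434459, minus) and 241 in Atp5l (chr9:44920963-44920992, minus). Beside 1.87 for Uqcrc1, the differences were -0.72 for Ndufa8, 0.47 for Ndufa11, 0.41 for Cycs, -0.25 for Atp5g2, -0.19 for Atp5k, -0.15 for Uqcr11, 0.03 for Cox6a1 and -0.02 for Atp5l. Genes with these letters thus had no common difference between the genotypes, and that of Ndufa11 was -0.52 without WT replicate 2. The ETS core CCGGAAG stood in 17 of 66 members (25.8%) and 9.93% of genes, and the YY1 letters AANATGGCG in 9 (13.6%) and 2.76%. The AhR response element letters TNGCGTG stood in 8 members (12.1%), against 5.84% of genes. Those 8 were Atp5md, Ndufa3, Ndufa4, Ndufa7, Ndufc2, Ndufv1, Sdha and Sdhb. Their differences ran from -0.44 in Ndufa3 to 1.18 in Sdha, where Sdha was at 0.21 without WT replicate 2. A match is a run of letters and shows no binding. The 27025 genes were all those with a promoter sequence, not only genes on the array. They were not matched to the members for level or base composition. Whether the shares are particular to the members was not tested.

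Cytochrome c, the mobile carrier between complexes III and IV, had 5 probe sets naming Cycs. The brightest read 917, 1370 and 393 on Ahr-KO arrays, against 462, 873, 731 and 428 on WT arrays, a difference of 0.41 ± 0.58 (SE), and 0.01 without Ahr-KO replicate 2. The groups overlapped, with Ahr-KO replicate 3 below every WT array. Among the other probe sets, a pair held identical values on all 7 arrays and count as 1 measurement. Differences over the other probe sets ran from 0.26 to 0.67, with SEs of 0.56 to 0.72.

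Complex IV was even between the genotypes, and its ubiquitous subunits were among the steadiest members. Higher Ahr-KO values were found for 12 of 19 genes, and the median difference was 0.07. Cox4i1, the regulatory subunit found in most tissues, read 2595, 2494 and 1911 in Ahr-KO cells, against 2735, 1464, 1850 and 1977 in WT cells, a difference of 0.24 ± 0.44 (SE). Cox6a1 read 3578, 3531 and 1662 for Ahr-KO, compared with 3679, 1916, 2154 and 3548 for WT, with a difference of 0.03 ± 0.51 (SE) that turned to -0.16 without Ahr-KO replicate 1 and to -0.05 after quantile normalization. These ranges were nearly the same in both genotypes. The smallest unadjusted p in the complex was that of Cox7c, at 120, 151 and 81.9 on Ahr-KO arrays, against 44.0, 161, 51.2 and 47.6 on WT arrays. WT replicate 2 was above the Ahr-KO arrays while the 3 other WT arrays were below them, and the difference of 0.81 ± 0.59 (SE) was 1.25 without that array. Cox7a2 read 908, 2057 and 3221 in Ahr-KO cells, against 1349, 1258, 879 and 974 in WT cells, and its difference of 0.73 ± 0.55 (SE) was 0.32 without Ahr-KO replicate 3 and 1.23 without Ahr-KO replicate 1.

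Several complex IV subunits, and the c subunit of ATP synthase, are encoded by more than 1 gene, and the array had probe sets annotated to single forms. The ubiquitous forms Cox4i1, Cox6a1, Cox6b1, Cox7a2, Cox7b and Cox8a exceeded background on all 7 arrays. Among the 7 tissue-restricted forms, Cox7b2, Cox8b and Cox8c exceeded it on none. Cox8c, a testis form, read 16.2, 22.3 and 11.6 for Ahr-KO, compared with 12.9, 4.15, 8.51 and 17.7 for WT. The muscle form Cox7a1 read 15.5, 15.5 and 21.4 on Ahr-KO arrays, against 27.3, 15.9, 23.8 and 59.5 on WT arrays, above background on WT replicate 4 alone. Cox4i2 and Cox6a2 each exceeded background on 1 Ahr-KO array and 2 WT arrays. The exception was Cox6b2, known from testis, whose probe set read 537, 679 and 1250 in Ahr-KO cells, against 1058, 364, 710 and 549 in WT cells, above background throughout. Whether its probes also catch a related transcript was not tested. Of the muscle markers, none of 5 exceeded background on every array.

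ATP synthase varied less between arrays than complex I. Of its 17 genes 11 had higher values in Ahr-KO, the median difference was 0.08, and 8 genes stayed within 2-fold from the lowest to the highest array, against 1 of 32 in complex I. Complex V genes had a median residual SD of 0.36 log2 units, against 0.66 for complex I and 0.55 for complex IV, which was at 0.33 over its 10 genes other than the tissue-restricted forms and paralogs. Atp5l, subunit g of the membrane part, was the steadiest of all members over the arrays, at 3564, 2698 and 2545 for Ahr-KO, compared with 3154, 3018, 2958 and 2662 for WT. Its difference was -0.02 ± 0.41 (SE), with either sign across the alternatives tried. Atp5e, the epsilon subunit and the brightest probe set of the complex, read 4590, 5154 and 5005 on Ahr-KO arrays, against 6521, 2606, 3938 and 5109 on WT arrays, a difference of 0.19 ± 0.47 (SE) that was -0.05 without WT replicate 2.

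**Figure D4:**
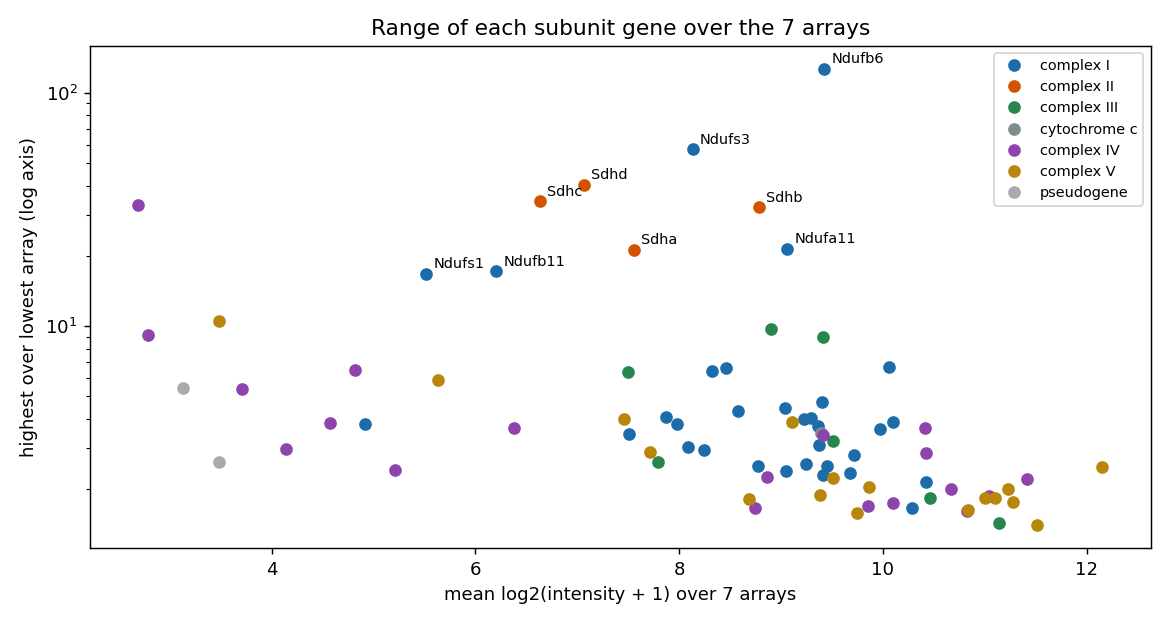
Ratio of the highest to the lowest of the 7 arrays (log axis) against mean log2(intensity + 1) for the members, coloured by complex; members above 12-fold with a mean above 5 are named. Atp5l is lowest at 1.40, the complex II genes lie between 21.3 and 40.4, and Ndufb6 is highest at 127.

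The subunits of complex V with non-overlapping values were both lower in Ahr-KO. Atp5g3, 1 of the genes for subunit c of the rotor ring, read 692, 757 and 788 in Ahr-KO cells, against 841, 950, 1099 and 919 in WT cells. All arrays were close together and the gap was small, at -0.35 ± 0.40 (SE; limma adjusted p = 0.964), a fold of 0.79. The other rotor genes, which encode the same mature protein, did not share the separation: Atp5g2 differed by -0.25 ± 0.43 (SE) with overlap, and Atp5g1 exceeded background on no array. Atp5j2, subunit f of the membrane part, read 36.3, 25.2 and 31.2 for Ahr-KO, compared with 43.5, 55.9, 62.0 and 149 for WT, with a difference of -1.15 ± 0.54 (SE). It exceeded background on all 4 WT arrays and on no Ahr-KO array, so the size depends on the pseudocount and was -0.88 with 16 in place of 1. Without WT replicate 4 it was -0.78.

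Other members of complex V leaned upward. Atp5c1, the central stalk subunit gamma, read 311, 271 and 247 on Ahr-KO arrays, against 140, 297, 108 and 182 on WT arrays. WT replicate 2 lay among the Ahr-KO arrays while the 3 other WT arrays were below, a difference of 0.70 ± 0.49 (SE). Atp5j, coupling factor 6 of the peripheral stalk, read 1030, 887 and 816 in Ahr-KO cells, against 919, 460, 521 and 653 in WT cells, a difference of 0.56 ± 0.45 (SE). The catalytic beta subunit gene Atp5b, with values between 1302 and 2133, differed by 0.08 ± 0.42 (SE). The 2 pseudogenes, Atp5c1-ps and Uqcrh-ps1, exceeded background on no array.

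Single WT arrays set much of the members' level. Each array was scored by the median deviation of the members from their own 7-array means. The Ahr-KO arrays were alike at 0.04, 0.15 and 0.05, while the WT arrays were at 0.24, -0.22, -0.21 and 0.06. Whole arrays were shifted in part too. Over all genes the WT arrays were at 0.02, -0.11, -0.01 and 0.13, and over the bright genes at 0.02, -0.14, -0.13 and 0.10. WT replicate 2 was the lowest of the 7 arrays for 27 of the 82 members and WT replicate 3 for 18, against 4 to 11 for each other array. WT replicate 1 was the highest for 21. All Ahr-KO arrays thus fell between the WT extremes. On WT replicates 2 and 3, complex I had medians of -0.35 and -0.43, complex III of -0.10 and -0.42 and complex V of -0.004 and -0.21, while the 4 genes of complex II were at -3.22 and 0.44. Without WT replicate 3 the members with higher values in Ahr-KO numbered 43, and without WT replicate 2 they numbered 47, where 51 were counted with all arrays. The median difference was 0.05 without either of these arrays. Of all annotated probe sets, 48.3% were higher with all arrays, 48.0% without WT replicate 3 and 46.2% without WT replicate 2.

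**Figure D5:**
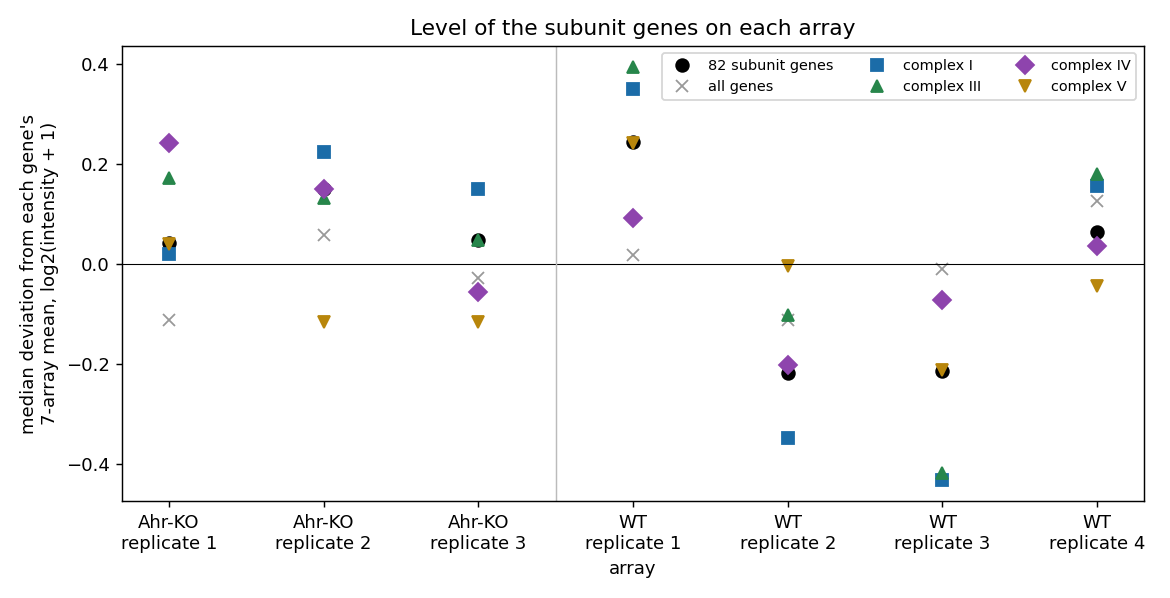
Median deviation from each gene's 7-array mean, in log2(intensity + 1), on each array for the 82 members, for all genes and for complexes I, III, IV and V; complex II, with 4 genes, is drawn on its own plot of intensities. The 3 Ahr-KO arrays lie between WT replicate 1 at 0.24 and WT replicates 2 and 3 at -0.22 and -0.21.

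Subunits encoded in mitochondrial DNA join the nuclear ones in complexes I, III, IV and V. Of 13 such genes 10 had a probe set of their own, all above background on all 7 arrays. They were far steadier than the nuclear genes, with a median residual SD of 0.16, against 0.59 for the 82 members and 0.48 for the 57 bright ones. They were also bright, with mean log2 levels of 10.9 to 12.4, where those of the members ran from 2.69 to 12.2. The 2 groups were not matched for level. Of the 10, 3 had higher and 7 lower values in Ahr-KO, and the median difference was -0.07. ND3, a membrane subunit of complex I, stood apart: it read 4125, 4021 and 3656 for Ahr-KO, compared with 6579, 7033, 7221 and 6982 for WT. The lowest WT array was above the highest Ahr-KO array by far more than either group's spread, with log2 SDs of 0.09 in Ahr-KO and 0.06 in WT. The difference was -0.82 ± 0.39 (moderated SE), a fold of 0.57, with a limma adjusted p of 0.963.

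For ND3 the moderated SE is larger than the arrays' own spread, because limma draws each variance toward one shared by all probe sets. With a variance prior that follows the level, the unadjusted p was 3.59e-05, against 0.0701 with the common prior, and the adjusted p was 0.91. Over the other alternatives the adjusted p was 0.923 to 0.996. An exact permutation test gave a two-sided p of 0.0286, the smallest possible, for a gene singled out after its values were seen. Leaving out single arrays moved the difference between -0.86 and -0.77. Its neighbours in the list did not share it: ND2 read 2243, 2117 and 2228 on Ahr-KO arrays, against 1613, 1638, 2020 and 2008 on WT arrays, a difference of 0.28 ± 0.40 (moderated SE) without overlap, and ND6 differed by -0.15 ± 0.40. The cytochrome b gene CYTB differed by 0.02 and COX1 and COX3 of complex IV by -0.08 and 0.04.

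Genes that build, regulate or serve the chain were noisier than the subunits, with median residual SDs of 0.73 to 1.73 log2 units by list. Their levels differed too. A mean log2 level of at least 8 was reached by 57 of the 82 members, but by 4 of 41 assembly factor genes. It was reached by 0 of 18 regulators, 0 of 12 ubiquinone genes and 6 of 10 exchange genes. The median residual SD was 0.93 over all genes and 0.64 over the bright ones, and the lists were not matched for level. None of the list genes passed the adjusted threshold. Among 41 measured assembly factor genes, 25 were higher and 16 lower in Ahr-KO, the median difference was 0.12, and Sco1 alone (1 gene, 2.44%) had an unadjusted p under 0.05. Sco1, a copper chaperone for complex IV, read 1.98, 5.61 and 0.03 in Ahr-KO cells, against 13.7, 19.9, 17.1 and 41.4 in WT cells, above background on WT replicate 4 alone. Tmem70, an ATP synthase assembly factor, differed by 1.53 ± 0.79 (SE), and Uqcc3, of complex III assembly, by 2.26 ± 1.20 (SE). The Tmem70 difference was 0.82 without Ahr-KO replicate 3, and that of Uqcc3 was 1.22 without Ahr-KO replicate 1. Of 18 regulators of mitochondrial biogenesis 10 were higher, with a median of 0.08 and none at an unadjusted p under 0.05. The mitochondrial deacetylase gene Sirt3 read 145, 131 and 94.8 for Ahr-KO, compared with 469, 135, 230 and 643 for WT. Gabpa, a subunit of the ETS factor GABP, read 60.2, 126 and 413 on Ahr-KO arrays, against 29.5, 40.8, 18.1 and 142 on WT arrays. Both pairs of ranges overlapped on 1 WT array.

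Ubiquinone synthesis genes held both directions. Of 12 measured, 7 were higher in Ahr-KO, with 1 gene at an unadjusted p under 0.05 in each direction, or 16.7% of the list, where 4.02% of all genes had one. Coq7, a hydroxylase of the pathway, read 142, 60.6 and 164 in Ahr-KO cells, against 5.67, 71.4, 0 and 7.16 in WT cells, where replicate 3 was listed at 0. Coq8a, a kinase-like protein of the pathway, read 57.9, 28.8 and 64.3 for Ahr-KO, compared with 96.0, 223, 411 and 190 for WT, a difference of -2.07 ± 0.61 (SE; limma adjusted p = 0.963). Its groups did not overlap, and Pdss2, a subunit of the enzyme that makes the isoprenoid tail, also lay lower without overlap, at -0.53 ± 0.43 (SE). These 2 of 12 are 16.7%, where 5.78% of all genes showed no overlap. Of 10 genes for ATP and phosphate exchange, the ATP synthase inhibitor and uncoupling, 6 were higher, with none at an unadjusted p under 0.05. Slc25a3, the mitochondrial phosphate carrier, differed by 0.65 ± 0.49 (SE) and the outer membrane channel gene Vdac1 by 0.58 ± 0.55 (SE).

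Probe sets that name a member together with another gene were outside the set. There were 10, and Uqcr10, Ndufs6, Cox6c, Ndufb4 and Ndufb2 were read by such probe sets alone. The probe sets of Ndufs6, an accessory subunit of complex I, shared with Ndufs6b, disagreed. The first read 1036, 754 and 1233 on Ahr-KO arrays, against 1011, 623, 673 and 1028 on WT arrays, and the other 905, 694 and 1241 in Ahr-KO cells, against 437, 559, 222 and 581 in WT cells. Their differences were 0.28 ± 0.45 (SE) and 1.12 ± 0.52 (SE). Among members with several probe sets of their own, of which there were 10, the second probe set of Atp5d differed by 0.09 where the first differed by 0.44, while those of Cox5b differed by 0.25 and 0.22.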

How the data were processed

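Expression was measured on 7 arrays. The authors deposited a linear intensity for each probe set on each array, with no value below 0. Per the submitters' processing notes the software was Affymetrix Expression Console. Summarization and normalization were steps not given in the sources used here. Of 41155 rows, 25335 were annotated and 23521 had 1 gene symbol. Depth does not apply to arrays, whose number limits precision.

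Intensities were transformed as log2(intensity + 1) and fitted with limma 3.58.1 (R 4.3.3; lmFit and eBayes, genotype as the only term) on the 25335 rows. P-values were two-sided, adjusted by Benjamini-Hochberg over those rows, with a threshold of 0.05. The background mark was set per array at the 95th percentile over probe sets of olfactory receptors. Alternatives left out each array, or changed the normalization, pseudocount, filter, variance prior, array weights or probe set rule. Named were Uqcrc1, up to 4 members per complex with the smallest unadjusted p and up to 2 of highest mean, members without overlap, isoform pairs, and up to 3 genes per list of related functions; other names were added after their values were seen. Members and lists were chosen with earlier results of these data known. The fit was tested on simulated data. Same-numbered replicates did not deviate together (correlations -0.065 to 0.023), so no pairing was used.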

Additional observations from a re-analysis of the deposited data

Results flagged for a closer look

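Among 29 named members, 2 had a WT array far from the other WT arrays, and both involved WT replicate 2. The rule was Dixon's criterion for 4 values (0.829) on the log2(intensity + 1) scale, where chance gives about 1 in 20 groups. For Sdha WT replicate 2 was the lowest, at an intensity of 16.6, with a gap of 0.903 of the group's range on the log2 scale. For Cox7c it was the highest, at 161, with a gap of 0.885. The Ahr-KO groups, with 3 arrays, were not tested in this way.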

How the results depend on the processing

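No probe set of the whole table and no member passed the adjusted threshold under any of the 15 alternatives to the fit. Uqcrc1 kept its direction and an unadjusted p under 0.05 in all 15, with differences from 1.62 to 2.09. Its groups did not overlap, so leaving out an array could not reverse the direction. The alternatives were not independent. The dim filter, the trended prior and the mean over probe sets each gave 1.87, as the main fit did. The replicate block gave the same 2.07 as leaving out WT replicate 4. Members at an unadjusted p under 0.05 numbered 1 with all arrays, and from 1 to 4 as each array was omitted: Cox7a2 joined without Ahr-KO replicate 1 (2 members), Cox7c without WT replicate 2 (2), and Ndufs3, Sdhc and Atp5j2 without WT replicate 1 (4). With a pseudocount of 16 there were 4, with Ndufb9, Ndufa8 and Ndufv2 added, and with a trended and robust variance prior 3, with Ndufb9 and Ndufa8. The members higher in Ahr-KO numbered 43 to 54 and their median difference was 0.05 to 0.18. Among all probe sets or genes tested, the share higher in Ahr-KO was 46.2 to 51.4%. The 57 bright members, a group chosen after seeing the data, had 37 higher and a median of 0.18. Shares of the 82 members at that p, 1.22% with all arrays, were 1.22 to 4.88% without single arrays, where 3.77 to 5.29% of all probe sets had it. They were 4.88% with a pseudocount of 16 and 3.66% with the trended prior, beside 4.06% and 3.94% of all probe sets. With the replicate number as a block, which does not pair these samples, 52 were higher, the median was 0.15, Uqcrc1 differed by 2.07 and 1 member had an unadjusted p under 0.05. The difference changed sign under some alternative for 6 of 29 named members, among them Sdhb and Uqcrc2, at 1.04 and -0.52 with all arrays. Without single arrays, the Cox6a1 difference lay between -0.16 and 0.39, that of Atp5l between -0.17 and 0.076, that of Uqcrc2 between -0.85 and 0.063, that of Uqcr11 between -0.31 and 0.046, that of Sdhb between -0.049 and 1.59 and that of Atp5e between -0.049 and 0.39. With all arrays, Cox6a1 was at -0.055 after quantile normalization and at -0.040 with array weights, and Atp5l at 0.036 after median centring. The fits without an array used fewer samples; the cause of the other changes was not tested. The dim filter kept 73 of the 82 members. Values under the background mark of 33.8 to 42.8 carry little information, which bears on the restricted isoforms, Atp5g1, Atp5j2 and Sco1.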
